A study of Drosophila melanogaster with 8 samples.

Results

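Dnmt2 mutant flies were compared with wild type flies after heat shock by the share of cytosines that were still read as C in the Invader 4 long terminal repeat (LTR) after bisulfite treatment. The comparison rests on 2 of the 8 libraries of the series, the wild type heat shock library with 1864 reads and the Dnmt2 mutant heat shock library with 2061 reads, together 3925 of 16435 reads. Both were chosen by their labels, and each genotype and stage had 1 library. The wild type flies were of strain w1118. The mutant flies were w1118 and homozygous for a Dnmt2 mutation that the labels do not name further. How many flies went into a library is not given in the sources used here. All were adults of mixed sex taken as whole bodies 3 days after hatching, and both heat shock groups were kept at 37 °C for 1 h and then for 5 h at room temperature. The other stages were standard culture, 1 day of recovery and 3 days of recovery.

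Bisulfite converts unmethylated cytosine to uracil, which is read as T after PCR, and leaves 5-methylcytosine as C. A cytosine that escaped conversion is also read as C, so the level does not separate methylation from incomplete conversion, and no conversion control was analysed here. Dnmt2 resembles DNA methyltransferases in sequence and is best known for methylating transfer RNA. Invader 4 is a retrotransposon, a mobile element copied through RNA, and its LTRs are the repeats at either end that carry the element's start and stop signals for transcription. The LTR is present in many genomic copies, and 1 amplicon collects reads from an unknown mixture of them.

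The amplicon was 149 bases long and held 27 cytosines. There were 8 CpG, 9 CHG and 10 CHH cytosines, H being any base but G. By the next base alone, the cytosines other than CpG were 10 CpA, 4 CpC and 5 CpT. Positions are counted from 1 at the 5′ end of the amplicon. Each cytosine was covered by 1629 to 2061 C or T calls in each of the 2 libraries. A level is the share of C among C and T calls, in percent, and differences are given as Dnmt2 mutant minus wild type in percentage points. With 1 library a side the reads are the units, so each test compares these libraries, not the genotypes. Intervals cover the counting error of reads only. Reads carry no molecular identifiers, so PCR copies of 1 molecule count as separate reads and the intervals can be too narrow.

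The libraries stood apart in the LTR copies they contained. Of 39 base differences from the converted reference, 11 (28.2%) differed in share between the heat shock libraries at an adjusted p under 0.05 (Fisher's exact test, two-sided, Benjamini-Hochberg adjustment over the 39), 7 higher and 4 lower in the Dnmt2 mutant library. The 39 were those with a mean share over 0.5% in the heat shock libraries, and the counts depend on this limit. With a mean share over 1%, 5 variants were called. In a name such as G85T the reference base stands first, then the position and the base in the read. G85T was seen in 0 of 1850 wild type reads (a count of 0 allows up to 0.162%) and in 25 of 2043 Dnmt2 mutant reads (1.22%, adjusted Fisher's exact p = 3.93e-06). G32T was at 0.107% in the wild type and 1.51% in the Dnmt2 mutant library (adjusted Fisher's exact p = 7.79e-06). C102G was the one of the 6 with the smallest p that was lower in the Dnmt2 mutant library, 2.31% against 5.33% (adjusted Fisher's exact p = 1.11e-05). G115T was at 1.44% in the Dnmt2 mutant and 0.109% in the wild type library, and G31A was at 1.36% and 0.107% (adjusted Fisher's exact p = 1.11e-05 and 1.66e-05). G47A was seen in 0 of 1861 wild type reads, which allows up to 0.161%, and in 1.02% of Dnmt2 mutant reads (adjusted Fisher's exact p = 1.11e-05). G13A was at 0.376% in the wild type and 1.51% in the Dnmt2 mutant library. The variants named here other than C102G were below 0.5% in the wild type library. They passed the limit on the mean share through the Dnmt2 mutant library. G13A and G85T stood together in 22 of 2061 Dnmt2 mutant reads (1.07%). The pair was in 0 of 1864 wild type reads, which follows from the absence of G85T there.

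These variants did not follow genotype across the series. G85T was at 1.90% in wild type standard, 1.65% in wild type after 1 day and 1.51% in Dnmt2 mutant after 3 days, and at 0 in the wild type library after 3 days and in the Dnmt2 mutant libraries at standard and after 1 day. The wild type heat shock library therefore shared its low share with Dnmt2 mutant libraries of other stages, and the Dnmt2 mutant heat shock library shared its high share with wild type libraries. Within the heat shock comparison, genotype and set of LTR copies cannot be told apart. The Dnmt2 gene lies outside the amplicon, so the genotype labels could not be checked against it. If the labels of the 2 libraries were exchanged, each difference between them would keep its size and turn its sign, and the difference in level would be 0.337 instead of -0.337 percentage points. The contrasts with other stages would turn in sign and also change in size. "Dnmt2 mutant" and "wild type" below mean the libraries labelled so.

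Less C was retained in the Dnmt2 mutant library than in the wild type library. Of 49303 wild type calls 923 were C, a level of 1.87% (95% Wilson interval 1.76% to 1.996%), and of 54462 Dnmt2 mutant calls 836 were C, a level of 1.54% (1.44% to 1.64%). The difference was -0.337 points (95% interval from the variance between reads -0.523 to -0.151, read permutation p = 0.00028, two-sided, 100000 permutations). The Dnmt2 mutant level was 0.820 times the wild type level. The Wilson intervals of the 2 levels treat calls as independent, though calls of 1 read are linked. With reads as the units the standard error of the level was 0.0627 points in the wild type and 0.0714 in the Dnmt2 mutant library. Among the 8 libraries the wild type heat shock level ranked 1st from the highest and the Dnmt2 mutant heat shock level 7th, or 8th and lowest without the read described next.

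A single read in the Dnmt2 mutant library carried C at all 27 cytosines, and none did in the other 7 libraries. It was read as T at 32 of 32 reference thymines, with 1 further base difference, A127G, and 1 gap, at position 128. The next highest number of C in a read of that library was 3. This read held 27 of the 836 C calls. Without it the Dnmt2 mutant level was 1.49% and the difference -0.386 points (-0.546 to -0.226, read permutation p = 1e-05, the smallest that 100000 permutations can give). The read thus brought the libraries closer together and widened the interval.

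C at the reference thymines, which comes from sequencing or PCR error or from LTR copies with C there, was the background. It was 0.197% in the wild type library (116 of 58845 calls) and 0.164% in the Dnmt2 mutant library (106 of 64756 calls), a difference of -0.0334 points (-0.0800 to 0.0131, read permutation p = 0.167). The level at cytosines was 9.497 times this background in the wild type and 9.38 times in the Dnmt2 mutant library. The background does not measure incomplete conversion, so these ratios do not separate methylation from it. The Dnmt2 mutant background was 0.830 times that of the wild type, against 0.820 times for the level.

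Most cytosines along the amplicon had a lower level in the Dnmt2 mutant library. The intervals of single cytosines were wider than the difference in level, so whether it was concentrated at some of them could not be decided. The Dnmt2 mutant level was lower at 23 of 27 cytosines and higher at 4, C1, C33, C42 and C63, and the numbers were the same without the read with C at all 27. In reads matching the reference outside cytosines 19 were lower. With identical sequences counted once 20 were lower, and with identical call patterns counted once 14 were. The median difference was -0.376 points, with a range from -1.15 to 0.592. No single cytosine passed the threshold (0%, 0 of 27, Fisher's exact test with Benjamini-Hochberg adjustment), 2 had an unadjusted p under 0.05, Holm's adjustment called 0, and the smallest adjusted p was 0.327.

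C15, a CpG cytosine, had the largest difference. It was read as C in 50 of 1820 wild type reads (2.75%) and 32 of 1998 Dnmt2 mutant reads (1.60%), a difference of -1.15 points (Newcombe interval -2.12 to -0.221, Fisher's exact p = 0.0184, adjusted p = 0.327). The wild type value lay above all 7 other libraries, and the 6 libraries of other stages were at 0.973% to 1.78%. C35, also CpG, was at 1.56% in the wild type and 0.777% in the Dnmt2 mutant library (-0.780 points, -1.51 to -0.107, Fisher's exact p = 0.0242, adjusted p = 0.327). Here the Dnmt2 mutant value was the one that stood outside, below the 1.19% to 2.20% of the 6 libraries of other stages.

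The intervals of the other 4 of the 6 largest differences included 0. C112, a CHH cytosine, was the highest of the wild type library and was at 3.41% there and 2.58% in the Dnmt2 mutant library (-0.824 points, -1.95 to 0.267, Fisher's exact p = 0.150, adjusted p = 0.573). With identical aligned sequences counted once its difference turned to 0.476 points. C39, a CHG cytosine, was at 2.22% and 1.51% (-0.706 points, -1.60 to 0.146, Fisher's exact p = 0.121, adjusted p = 0.573). C24, a CpG cytosine, was at 1.56% and 0.926% (-0.632 points, -1.38 to 0.0662, Fisher's exact p = 0.0813, adjusted p = 0.573), and its difference turned to 0.124 points in reads matching the reference outside cytosines. C42, a CHH cytosine, went the other way with 1.29% in the wild type and 1.88% in the Dnmt2 mutant library (0.592 points, -0.266 to 1.45, Fisher's exact p = 0.176, adjusted p = 0.573). At C42 12.6% of reads in the wild type and 12.3% in the Dnmt2 mutant library had neither C nor T, and at C129 10.1% and 11.5% had neither.

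Among the other CpG cytosines the wild type and Dnmt2 mutant levels were 0.970% and 1.27% at C1, 1.99% and 1.41% at C19, and 0.913% and 1.22% at C63. At C67 they were 1.56% and 1.37%, and at C114, the highest cytosine of the Dnmt2 mutant library, 3.11% and 2.73%. The sign turned at C67 (0.184) in reads matching the reference outside cytosines, and at C1 (-0.0377) and C114 (0.145) with identical sequences counted once. CpG was thus the class with both of the cytosines whose interval lay below 0 and with 2 of the 4 cytosines that were higher in the Dnmt2 mutant library.

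All 9 CHG cytosines were lower in the Dnmt2 mutant library, with differences from -0.706 points at C39 to -0.02496 at C27. The wild type and Dnmt2 mutant levels were 1.72% and 1.22% at C11, 1.57% and 1.17% at C21, 1.29% and 1.26% at C27, and 1.57% and 1.09% at C45. They were 2.37% and 2.04% at C48, 1.61% and 1.12% at C51, 1.23% and 0.873% at C62, and 2.29% and 2.096% at C117. No single one of these differences was larger than its counting error. The sign turned at C27 (0.721) and C48 (0.0989) in reads matching the reference outside cytosines, and at C117 (0.0486) with identical sequences counted once.

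Of the 10 CHH cytosines 8 were lower in the Dnmt2 mutant library, and C33 and C42 were higher. C33 was at 1.57% in the wild type and 1.71% in the Dnmt2 mutant library, and C43 was at 1.99% and 1.81%, with a difference of 0.0794 points once identical sequences were counted once. The levels were 2.37% and 1.81% at C75, 1.72% and 1.51% at C102, 1.85% and 1.53% at C110, and 2.03% and 1.55% at C116. They were 2.03% and 1.59% at C129 and 2.04% and 1.93% at C130. At C102 reads with neither C nor T made up 6.60% in the wild type and 3.78% in the Dnmt2 mutant library, where the variant C102G differed as given above.

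**Figure D1:**
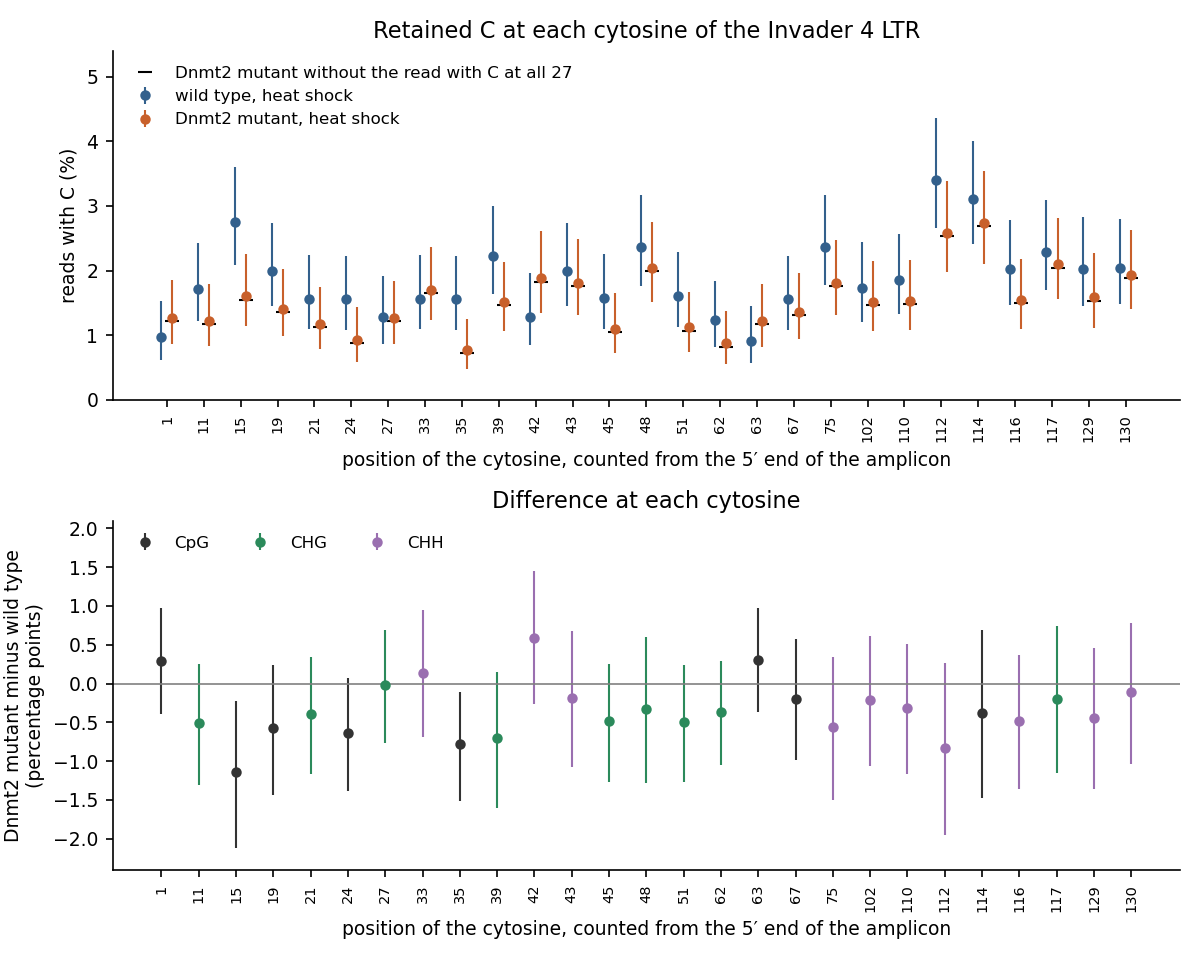
Level of C at each of the 27 cytosines (top, percent of C and T calls, with 95% Wilson intervals) in the wild type and Dnmt2 mutant heat shock libraries, and the difference with 95% Newcombe intervals in percentage points by context (bottom). The difference is below 0 at 23 of 27 cytosines, and only the intervals of C15 and C35 lie wholly below 0.

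The pattern along the amplicon was alike in both libraries. C112 and C114 were the 2 highest cytosines in each, and 3 of the 5 highest were shared. Across the 27 cytosines Pearson's r between the libraries was 0.773 and Spearman's rho 0.727. This is a description across cytosines that share the same reads and base composition. In the first 50 bases, with 14 cytosines, the difference was -0.345 points (-0.574 to -0.115), and in bases 51 to 100, with 5 cytosines, it was -0.261 (-0.603 to 0.0805). In the bases beyond 100, where 8 of 8 cytosines were lower in the Dnmt2 mutant library, it was -0.371 (-0.710 to -0.0318). The 3 intervals overlapped.

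The wild type heat shock library lay above all 7 other libraries at 7 cytosines, C15, C21, C48, C51, C75, C112 and C114. The Dnmt2 mutant heat shock library lay below all others at C24, C35 and C130. The wild type library was the lowest of all at 2 cytosines, C1 and C33, and the Dnmt2 mutant library was the highest at 0. These counts were not tested against what the ranking of 8 libraries would give by itself.

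By sequence context the Dnmt2 mutant library was lower in each of the 6 classes, and by the same amount at CpG and CHG. At CpG cytosines the level was 1.80% in the wild type and 1.41% in the Dnmt2 mutant library (-0.388 points, -0.680 to -0.0957, permutation p = 0.0276 adjusted over the 6 classes). At CHG cytosines it was 1.76% and 1.38% (-0.388 points, -0.664 to -0.111, adjusted permutation p = 0.0276). CHH cytosines were the highest of CpG, CHG and CHH in both libraries, 2.04% and 1.79%, and their difference did not pass the threshold (-0.248 points, -0.543 to 0.0474, adjusted permutation p = 0.121). The classes overlap, since CpA, CpC and CpT cytosines are counted again within CHG and CHH.

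Divided by the next base, CpT cytosines were at 1.69% in the wild type and 1.28% in the Dnmt2 mutant library (-0.412 points, -0.763 to -0.0606, adjusted permutation p = 0.0404). CpA cytosines, the highest of these classes in both libraries, were at 2.11% and 1.80% (-0.315 points, -0.614 to -0.0162, adjusted permutation p = 0.0585). CpC cytosines were at 1.64% and 1.46% (-0.189 points, -0.600 to 0.222, adjusted permutation p = 0.371). The number of classes that passed turned on the 1 read with C at all 27 cytosines. Without it CHH passed with -0.297 points (adjusted permutation p = 0.0438) and CpA with -0.364 (adjusted permutation p = 0.0177). CpG and CHG were then each at -0.436 points and CpT at -0.460, and CpC alone did not pass (-0.240 points, adjusted permutation p = 0.244). With identical aligned sequences counted once, CpG, CHG and CpT did not pass (adjusted permutation p = 0.348 each), nor did they with that read left out as well (adjusted permutation p = 0.105, 0.138 and 0.138).

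**Figure D2:**
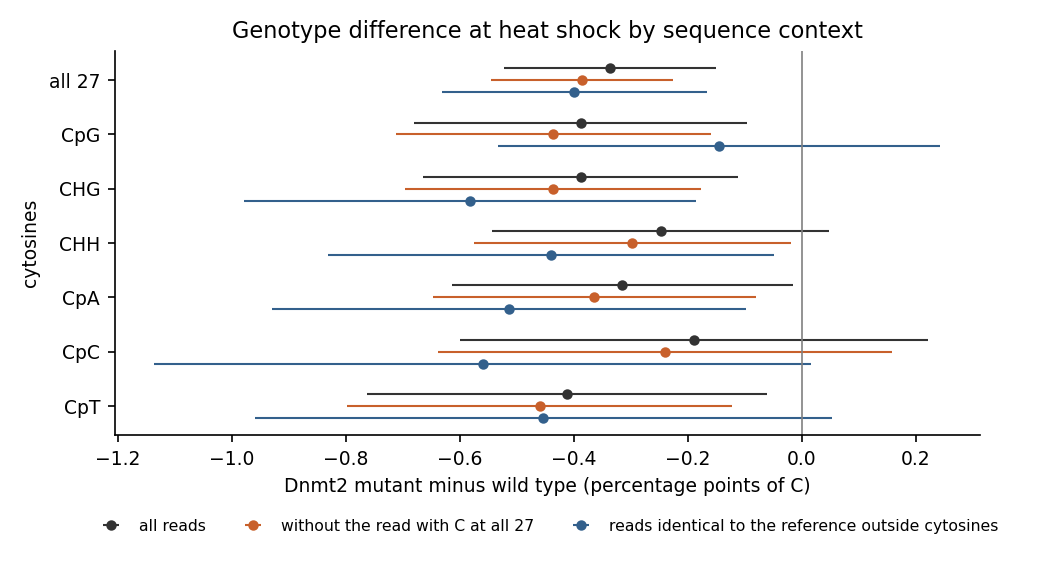
Difference in level, Dnmt2 mutant minus wild type in percentage points with 95% intervals from the variance between reads, over all 27 cytosines and in 6 sequence contexts, for 3 sets of reads. In reads matching the converted reference at every base but its cytosines CpG moves to -0.145 points and CHG to -0.582, while the difference over all 27 stays below 0 in each set.

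Fewer reads of the Dnmt2 mutant library carried any C. At least 1 C was found in 713 wild type reads (38.3%) and 666 Dnmt2 mutant reads (32.3%), a difference of -5.94 points (Newcombe interval -8.92 to -2.94, Fisher's exact p = 0.000309 adjusted over 3 shares). These were the highest and the lowest of the 8 libraries, and the 6 libraries of other stages lay between 32.7% and 37.6%. At least 2 C were found in 178 (9.55%) and 131 reads (6.36%), a difference of -3.19 points (-4.91 to -1.502, adjusted Fisher's exact p = 0.000340). At least 3 C were found in 28 (1.502%) and 15 reads (0.728%), a difference of -0.774 points (-1.49 to -0.116, adjusted Fisher's exact p = 0.0214). Without the read with C at all 27 the 3 differences were -5.97, -3.24 and -0.823 points, and each passed. With all reads, the wild type heat shock share was also the highest for at least 2 and 3 C, with wild type after 3 days close at 9.497% for at least 2. The Dnmt2 mutant heat shock share ranked 7th for both. Dnmt2 mutant after 3 days was lower for at least 2 C (5.93%), and wild type standard for at least 3 C (0.712%). Without the read with C at all 27 the Dnmt2 mutant heat shock share with at least 3 C was 0.680%. In reads matching the reference outside cytosines the share with at least 3 C did not pass (adjusted Fisher's exact p = 0.122).

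Reads with exactly 1 C were 535 in each library, 28.7% of the wild type library and 25.96% of the Dnmt2 mutant library. Exactly 2 C were found in 150 reads (8.05%) and 116 reads (5.63%), and 3 C in 24 (1.29%) and 14 (0.679%). The wild type library held 4 reads with 4 C and the Dnmt2 mutant library held 0. The Newcombe interval of the difference in share was below 0 at exactly 2 C (-4.03 to -0.841 points). It included 0 at 1 C (-5.54 to 0.0461), 3 C (-1.29 to 0.0135) and 4 C (-0.550 to 0.0130). The mean number of C per read was 0.495 in the wild type and 0.406 in the Dnmt2 mutant library (-0.0895, -0.139 to -0.0402, read permutation p = 0.00027).

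More of the gap in C calls lay in reads with several C than in reads with 1 C. Per 100 reads, reads with 1 C held 28.7 C calls in the wild type and 25.96 in the Dnmt2 mutant library, a difference of -2.74. Reads with 2 C held 16.1 and 11.3, a difference of -4.84 out of -8.95 in all. Reads with 3 or more held 4.72 and 3.35 (-1.37), or a difference of -2.68 without the read with C at all 27. Among reads with any C, 24.96% of the wild type and 19.7% of the Dnmt2 mutant reads had at least 2, a difference of -5.30 points (-9.65 to -0.891). What the lower mean number of C per read would give by itself was not computed, so these splits are descriptions only.

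**Figure D3:**
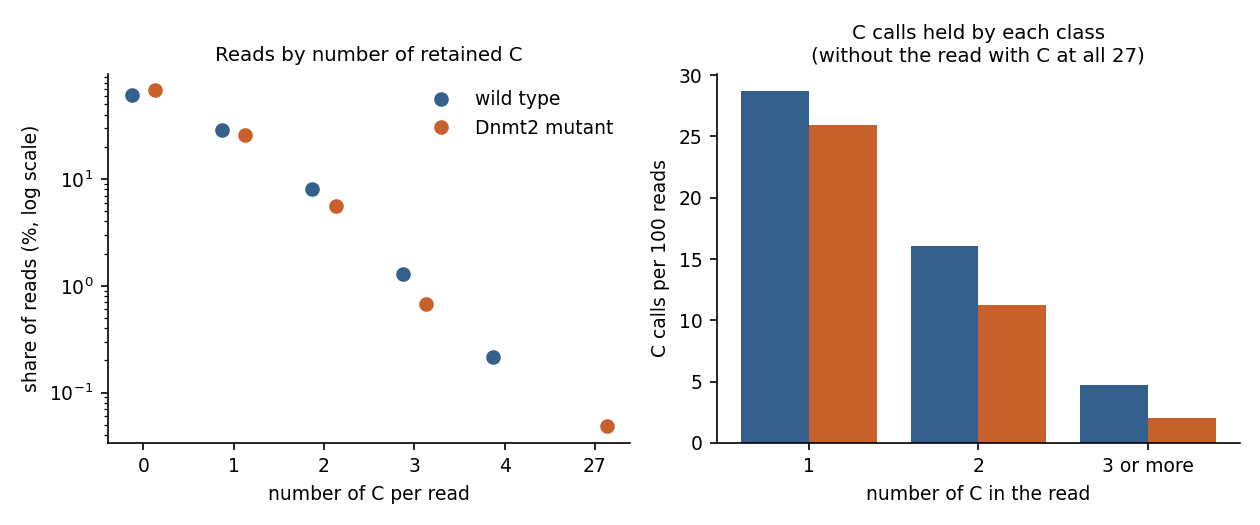
Share of reads by number of C per read (left, percent on a log scale, a class with 0 reads has no point) and C calls per 100 reads held by reads with 1, 2 and 3 or more C (right, without the read with C at all 27) in the wild type and Dnmt2 mutant heat shock libraries. The Dnmt2 mutant library has a larger share of reads with 0 C and a smaller share in each class from 1 to 4, where the intervals of the differences at 1, 3 and 4 C include 0. The largest gap in C calls is in reads with 2 C.

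In reads with 2 or more C, the C calls were spread over many pairs of cytosines in both libraries. Without the read with C at all 27, these reads held 246 pairs of C at 162 distinct pairs of cytosines in the wild type and 158 pairs at 121 distinct pairs in the Dnmt2 mutant library. The median distance within a pair was 47 bases in the wild type and 44 in the Dnmt2 mutant library, and 7.72% and 6.33% of pairs were at adjacent cytosines. The most frequent pair was C48 with C75 in the wild type library, in 7 reads, and C75 with C112 in the Dnmt2 mutant library, in 4 reads.

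The difference was measured again in reads of like sequence, because the libraries differed in LTR copies. Reads matching the converted reference at every base but its cytosines were 916 in the wild type (49.1%) and 993 in the Dnmt2 mutant library (48.2%). Their levels were 1.96% and 1.56%, a difference of -0.399 points (-0.632 to -0.167, read permutation p = 0.00071). In the remaining reads the difference was -0.275 (-0.564 to 0.0134). These include the read with C at all 27, without which it was -0.371 (-0.590 to -0.151). Reads with none of the 11 variants that differed between the libraries gave -0.390 points (-0.617 to -0.162, read permutation p = 0.0003), or -0.455 (-0.643 to -0.266) without the read with C at all 27. The 513 wild type and 520 Dnmt2 mutant reads with at least 1 of them gave -0.198 (-0.500 to 0.103). The difference over all cytosines was -0.390 points in reads without the variants, -0.198 in their carriers and -0.337 in all reads. The variants were picked from these same libraries, and a role of LTR copies was not tested. Reads without the variants, or matching the reference, can still come from different genomic copies. An LTR copy with T at a reference C reads the same as a converted C.

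The contexts kept their sign in reads identical to the reference but changed their order. CpG was at -0.145 points and no longer passed (adjusted permutation p = 0.464), while CHG was at -0.582 (adjusted permutation p = 0.0208) and CpA at -0.514 (adjusted permutation p = 0.0438). CHH was at -0.440, CpC at -0.560 and CpT at -0.453 points, with adjusted permutation p of 0.0554, 0.0816 and 0.0816.

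Repeated reads of 1 sequence made up much of both libraries. The wild type library held 794 distinct aligned sequences, 42.6% of its reads, and the Dnmt2 mutant library 809, or 39.3%. The most frequent sequence took 397 wild type reads (21.3%) and 544 Dnmt2 mutant reads (26.4%). Counting each aligned sequence once left a difference in level of -0.345 points that did not pass the threshold (read permutation p = 0.0764). The levels were then 3.10% in the wild type and 2.75% in the Dnmt2 mutant library, above those of all reads. This counting removes many reads without C, so its differences in points are not on the scale of those in all reads. Whether the difference passed again turned on the read with C at all 27, which weighs more among fewer sequences. Without it the levels were 3.10% and 2.63% and the difference was -0.471 points (read permutation p = 0.0019). The share of distinct sequences with at least 1 C differed in either case, 57.7% against 51.4% with that read included (adjusted Fisher's exact p = 0.0366). Counting each pattern of calls at the 27 cytosines once, which keeps a single read without C for each pattern of missing calls, left -0.0401 points (read permutation p = 0.939), or -0.367 without the read with C at all 27 (read permutation p = 0.143). Without molecular identifiers, PCR copies of 1 molecule and separate molecules of the same sequence cannot be told apart.

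Set beside the other stages, the genotype difference was -0.000627 points at standard (-0.158 to 0.157), -0.0450 after 1 day (-0.198 to 0.108) and -0.199 after 3 days of recovery (-0.363 to -0.0354). The wild type level was 1.59% at standard, 1.87% at heat shock, 1.80% after 1 day and 1.71% after 3 days. The Dnmt2 mutant level was 1.59%, 1.54%, 1.76% and 1.51% in the same order. The heat shock difference minus that at standard was -0.336 points (-0.580 to -0.0926), and minus that after 1 day it was -0.292 (-0.533 to -0.0513). Against 3 days the interval included 0 (-0.138 points, -0.386 to 0.110). In reads matching the converted reference at every base but its cytosines, the difference after 3 days was -0.0934 (-0.332 to 0.145), and heat shock minus 3 days was -0.306 (-0.639 to 0.0268). Heat shock and 3 days were the stages where the Dnmt2 mutant library held the variant G85T and the wild type library did not, and at the other stages it was the reverse. In reads matching the reference the differences were -0.399 at heat shock and -0.0934 after 3 days, and the interval of their contrast included 0. Genotype and LTR copies were not separated, and a cause was not tested.

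**Figure D4:**
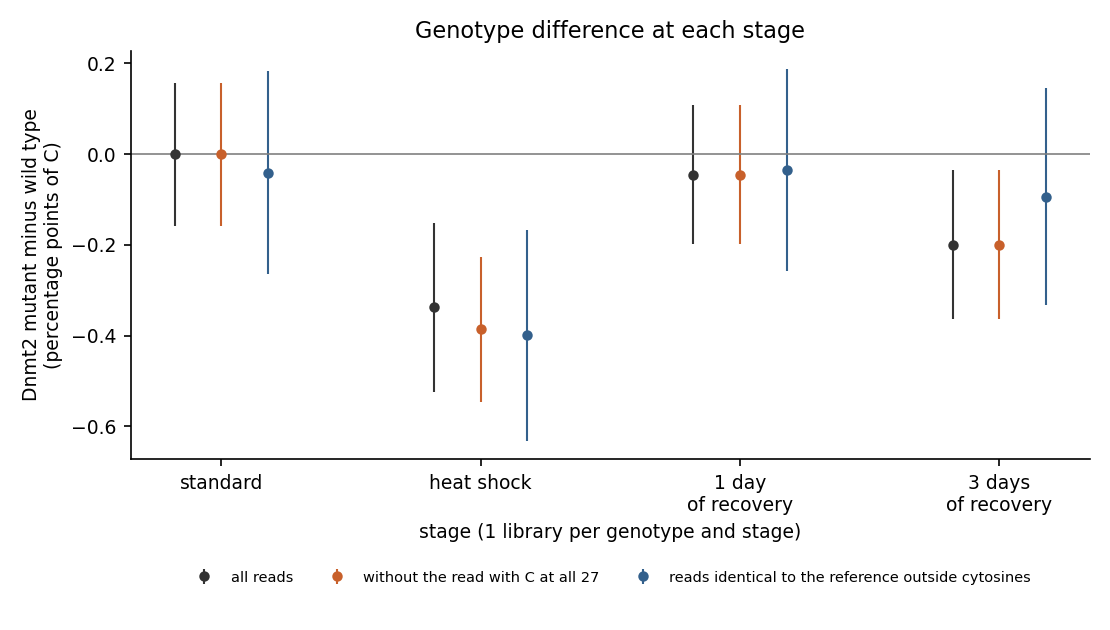
Difference in level over all 27 cytosines, Dnmt2 mutant minus wild type in percentage points with 95% intervals from the variance between reads, at each of the 4 stages with 1 library per genotype, for 3 sets of reads. Heat shock has the largest difference in each set, -0.337, -0.386 and -0.399 points, and the intervals at standard and after 1 day include 0.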

How the data were processed

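Per the labels' protocols, 5 µg of genomic DNA was converted with the EpiTect bisulfite kit, 200 ng was amplified in 35 cycles, and 50 ng of product was amplified in 15 further cycles with adapters for 454 sequencing. Which aligner and read filters were used is not given in the sources used here. Deposited call matrices hold 1 line per read with 0 for C, 1 for T and NA otherwise at each reference cytosine. They also hold the authors' score per read, the number of T codes plus a fixed amount for each NA. Codes, scores and percent values were recomputed from the deposited alignments without a difference, and the score was used only there.

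Levels were pooled over reads and cytosines (Python 3.11.15, numpy 2.4.6, scipy 1.17.1). The level, the contexts and the mean C per read were tested by exchanging whole reads in 100000 permutations, two-sided. Cytosines with at least 50 calls in both libraries, read shares and LTR copy variants with a mean share over 0.5% were tested with Fisher's exact test. Benjamini-Hochberg adjustment ran over the 27 cytosines, 6 contexts, 3 shares and 39 variants, with a threshold of 0.05. All cytosines were named, with full statistics for those past the threshold and the 6 largest differences, and the 6 variants with the smallest adjusted p. The permutation test of the level and the tests of single cytosines were run on simulated reads. Calls in these were drawn independently, without repeated reads, missing calls or LTR copies, so the simulation does not cover these features of the data. Alternatives changed the reads kept, the counting of identical reads, the coverage minimum, the weighting, the background and the test. The cytosines, classes, tests and alternatives were chosen with earlier results of these data known. The LTR sequence itself is not printed.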

Additional observations from a re-analysis of the deposited data

Results flagged for a closer look

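The genotype difference in level at heat shock was set against that of each other stage, with an interval from the variance between reads. It differed from the difference at standard by -0.336 percentage points (95% interval -0.580 to -0.0926) and from that after 1 day of recovery by -0.292 (-0.533 to -0.0513). Without the read with C at all 27 cytosines the values were -0.385 (-0.610 to -0.161) and -0.341 (-0.562 to -0.120). In reads matching the converted reference at every base but its cytosines these values were -0.359 (-0.680 to -0.0365) and -0.364 (-0.686 to -0.0433). Against 3 days of recovery the interval included 0 with all reads and in those reads. Each stage had 1 library per genotype, so these intervals cover the counting error of reads only, with PCR copies counted as separate reads. From standard to heat shock the wild type level went from 1.59% to 1.87% and the Dnmt2 mutant level from 1.59% to 1.54%.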

How the results depend on the processing

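With 1 library a group, no replicate could be left out. No paired analysis was possible because the heat shock comparison holds 1 library a side. The level difference ran from -0.304 with the background subtracted to -0.471 with sequences counted once and the read with C at all 27 left out, apart from counting call patterns once. With sequences counted once the levels themselves were higher, 3.10% in the wild type and 2.63% in the Dnmt2 mutant library without that read. Counting identical aligned sequences once ended the call for level (-0.345), CpG (-0.539), CHG (-0.400), CpT (-0.512) and mean C per read (-0.0941). Identical call patterns counted once, which left 344 wild type and 309 Dnmt2 mutant patterns, ended it for level (-0.0401), CHG (-0.652), CpT (-0.591), reads with at least 1, 2 and 3 C (-2.24, -2.83 and -3.35) and mean C per read (-0.0182). That setting turned the sign of CpG (0.0249), CHH (0.5004) and CpA (0.238) and left 14 cytosines lower. By its construction it removes most reads without C. Both countings were repeated without the read with C at all 27, chosen after the data were seen. With sequences counted once, level and mean C per read then passed, and CpG (-0.662), CHG (-0.523) and CpT (-0.635) did not. With patterns counted once, level (-0.367), CpG (-0.294), CHG (-0.971), CpT (-0.911), reads with at least 1, 2 and 3 C (-2.31, -3.04 and -3.66) and mean C per read (-0.102) did not, and CHH was 0.159. Reads identical to the reference lost CpG (-0.145), CpT (-0.453) and at least 3 C (-0.823) and gained CpA (-0.514). Leaving out the read with C at all 27, or reads with C at over 20% of cytosines, which removed the same read, gained CHH (-0.297) and CpA (-0.364). Calls at 80% or more of cytosines lost CpT (-0.400). Leaving out carriers of the 11 variants, chosen after the data were seen, lost CpG (-0.335) and CpT (-0.402) and gained CpA (-0.448). With the read with C at all 27 left out as well, no call was lost and CHH (-0.453) and CpA (-0.513) were gained. With a mean share over 1%, 5 variants were called.

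At single cytosines 9 differences changed sign, all in reads counted once or matching the reference. Counting sequences once gave C1 -0.0377, C43 0.0794, C112 0.476, C114 0.145 and C117 0.0486. Reads identical to the reference gave C24 0.124, C27 0.721, C48 0.0989 and C67 0.184. The causes were not tested beyond the constructions named. Depth limits single cytosines: at 1629 to 2061 calls the widest intervals span over 2 points, several times the difference in level.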
